A study of Mus musculus with 18 samples.

Results

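Livers of mice that lack the farnesoid X receptor (FXR, gene Nr1h4) in the whole body were compared with livers of mice that lack it in hepatocytes, all given vehicle. The members were chosen by genotype and treatment in the sample labels, which gives 6 of the 18 arrays of the study, 3 of whole-body FXR knockout and 3 of liver FXR knockout mice. The remaining arrays are 3 of WT mice with vehicle and 3 of each of the 3 genotypes with the FXR agonist GW4064. All animals were male C57BL/6J mice aged 10 to 16 weeks, and total RNA of liver was measured. In the liver knockout (AFXR Cre+), Fxr floxed/floxed alleles were cut by Cre under the albumin promoter, which is active in hepatocytes, so that other liver cells and other organs keep an intact gene. How the whole-body knockout was made is not described in the sources used here, and no floxed mice without Cre were arrayed, so that the tissue of FXR loss cannot be told apart from the Cre transgene, the floxed allele or the history of each line. Per the labels, vehicle (GW4064 dose 0) or GW4064 at 150 mg per kg was given by gavage 2 times, the second time 2 hours before the liver was taken. The methods describe the WT mice with another dose, 1 more administration and an overnight fast. Nothing says that the animals of a group came from separate litters or cages, so p-values measure the spread between these arrays.

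FXR is a nuclear receptor for bile acids. In hepatocytes it induces Nr0b2 (SHP) and the bile salt export pump, and in the ileum it induces fibroblast growth factor 15 (Fgf15), a hormone that reaches the liver through the portal blood and represses bile acid synthesis through its receptor on hepatocytes. A mouse without hepatocyte FXR thus still has the intestinal source of Fgf15, and a mouse without FXR in any cell does not have FXR there. The comparison of both knockouts asks what liver RNA differs when FXR is missing elsewhere as well.

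The targeted gene set both knockouts apart from WT. Nr1h4 was at 9.01, 9.39 and 8.83 on the log2 expression scale in the 3 WT vehicle arrays, at 4.47, 4.29 and 4.63 in the liver knockout and at 4.21, 4.27 and 4.12 in the whole-body knockout. The difference from WT was -4.61 in the liver knockout (limma, adjusted p = 2.94e-12) and -4.88 in the whole-body knockout (limma, adjusted p = 1.19e-12), and both knockouts differed from each other by -0.26 (SE 0.14, adjusted p = 0.497). The 10 measured hepatocyte markers differed between the knockouts by -0.465 (Hnf4a) to 0.399 (Tat), with a median of 0.0231. Of these, 6 lay above 0, and the hepatocyte products Alb, Ttr and Apoa1 differed by 0.04, 0.03 and 0.06. Array medians spanned 5.964 to 5.996, and each of the 6 vehicle knockout arrays correlated with the other arrays of its group at 0.995291 to 0.996759. With GW4064, replicate 3 of the whole-body knockout and replicate 1 of WT stood apart from all other arrays, and they enter here through the shared estimate of the spread and through the GW4064 comparison. Male-biased liver genes had a median log2 distance from WT vehicle of 0.0769, 0.167 and -3.12 in the 3 whole-body arrays with GW4064. For female-biased genes it was 0.165, 0.149 and 2.62.

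Throughout, a difference is the mean log2 expression of the whole-body knockout minus that of the liver knockout (n = 3 each), and a gene passed the test at a limma adjusted p under 0.05. With vehicle, 84 of 12394 genes passed (0.678%), 52 of them higher (0.420%) and 32 lower (0.258%) in the whole-body knockout. The genes that were higher included the stress and fasting genes Igfbp1, Asns and Pdk4, enzymes of cholesterol synthesis (Hmgcs1, Fdft1, Msmo1), the retinoid enzymes Cyp26a1 and Rdh11, the carboxylesterase Ces1g and the glutathione transferase Gstm2. Those that were lower included Alas1, the first enzyme of haem synthesis, and the hepatocyte transcription factors Foxa1, Foxa3 and Hnf4a. The median difference was 1.01 among the higher genes and -0.596 among the lower ones, against -0.00643 over all genes. At least a 2-fold difference was seen for 31 of the 84, 26 higher and 5 lower. In all 84, the 3 arrays of each knockout did not overlap, which held for 21.4% of all genes. The 84 were chosen on these same arrays, so their separation adds no further evidence.

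The count of genes rested on few arrays. It was 7, 3 and 23 without liver knockout replicate 1, 2 and 3, and 20, 17 and 14 without whole-body knockout replicate 1, 2 and 3. Ank3, Ctse and Fmn2 passed in each of these 6 fits. The arrays of all 84 genes did not overlap, so leaving 1 out could not change a direction. None of the 6 fits called 47 of the 84, among them Asns, Egr1, Cyp26a1, Rdh11, Fdft1, Msmo1, Foxa1, Foxa3, Hnf4a, Gdf10 and Trib3, and 1 fit called Hmgcs1, Igfbp1 and Pdk4. With a trended and robust prior 53 genes passed, and Igfbp1, Asns, Egr1, Cyp26a1, Ces1g, Rdh11, Fdft1, Msmo1, Hmgcs1, Foxa1, Kyat3 and Pdk4 no longer did, while with array weights 260 passed. At the threshold, Mnt, Slc6a12, Tmem47, Fitm1 and Aldh2 lay just inside (adjusted p = 0.0494), and Hc (0.0508), Cyp2g1 (0.0540), Tec (0.0540) and Nr4a1 (0.0604) just outside.

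**Figure D1:**
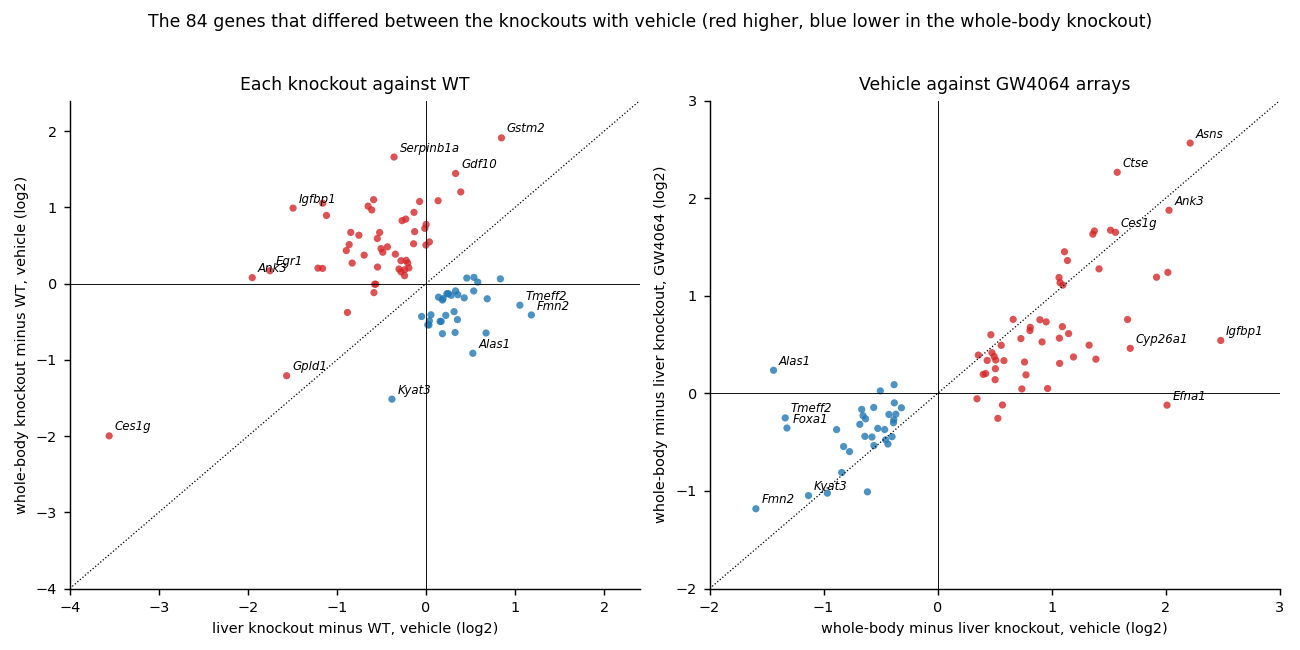
Log2 differences of the 84 genes that passed the vehicle comparison (red, higher in the whole-body knockout; blue, lower). The left panel sets the difference of each knockout from WT vehicle against the other (both share the WT arrays), and the right panel sets the vehicle difference against that of the GW4064 arrays; the dotted line marks equal values, and 77 of 84 genes keep their sign with GW4064.

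Genes of cholesterol synthesis all lay in 1 direction, above 0. The pathway builds cholesterol from acetyl-CoA through mevalonate and squalene, and its genes are switched on together by SREBP-2 when sterols in the cell are low. Of the genes on the list, 19 were measured. All 19 had a difference above 0, against 48.2% of all genes, and 18 had an unadjusted p under 0.05 in that direction, against 6.16% of all genes (5.99% in the opposite direction). The 3 whole-body arrays lay above the 3 liver knockout arrays for all 19, which held for 11.0% of all genes. After adjustment over all genes 3 passed, Hmgcs1, Fdft1 and Msmo1, and the median difference of the list was 0.891. The members were chosen with earlier results of these data known, so their count stands as a description.

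Hmgcs1, which makes HMG-CoA at the entry of the pathway, was at 10.80, 11.51 and 11.77 in the liver knockout and at 12.69, 12.72 and 12.75 in the whole-body knockout. The difference was 1.36 (SE 0.27, adjusted p = 0.0374), or 2.57-fold. Fdft1, the squalene synthase, was at 9.10, 9.79 and 9.73 in the liver knockout and at 10.85, 10.97 and 11.04 in the whole-body knockout. For both genes the whole-body arrays lay close to each other, and liver knockout replicate 1 was the lowest. The difference of Fdft1 was 1.42 (SE 0.28, adjusted p = 0.0378). Msmo1, a sterol methyl oxidase of the steps after lanosterol, was at 9.59, 10.21 and 10.15 in the liver knockout and at 11.28, 11.36 and 11.44 in the whole-body knockout, a difference of 1.37 (SE 0.30, adjusted p = 0.0494). Liver knockout replicate 1 was again the lowest array, and the groups did not overlap.

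The other enzymes lay in the same direction without passing. Farnesyl diphosphate synthase (Fdps) differed by 1.32 (adjusted p = 0.0727), squalene epoxidase (Sqle) by 1.27 (0.0875) and phosphomevalonate kinase (Pmvk) by 1.02 (0.0875). Nsdhl differed by 0.97, Cyp51 by 0.94, Lss, the lanosterol synthase, by 0.89 and Mvd by 0.86. The smallest differences were those of Ebp (0.32), Stard4 (0.31) and Srebf2 (0.27), the gene of SREBP-2 itself.

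Against WT, 0 of the 19 genes passed in either knockout (limma). Over the list, the median log2 distance from WT with vehicle was -1.02, -0.53 and -0.355 in the 3 liver knockout arrays and -0.00311, 0.162 and 0.325 in the 3 whole-body arrays. Hmgcs1 was at 12.62, 12.47 and 12.47 in WT, from which the whole-body knockout differed by 0.20 (adjusted p = 0.800) and the liver knockout by -1.16 (adjusted p = 0.0536). With GW4064, whose arrays are separate animals, all 19 genes again had a difference above 0 and 10 passed (1.80% over all genes), with a median of 1.07. The liver knockout arrays there had list medians of -1.27, -0.985 and -0.877, and the whole-body arrays 0.519, -0.326 and -0.312, so that the groups did not overlap and whole-body replicate 1 was the highest. These medians too are relative to WT with vehicle, from which the WT arrays with GW4064 lay at -0.507, -0.736 and -0.177.

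**Figure D2:**
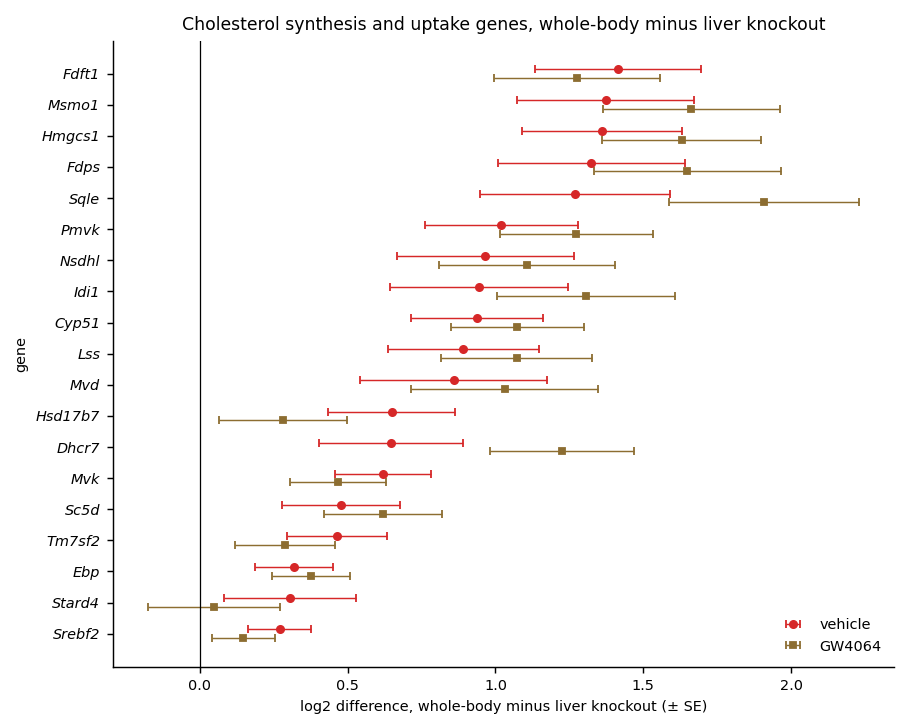
Log2 difference, whole-body minus liver FXR knockout, for the 19 measured genes of cholesterol synthesis and uptake, with vehicle (circles) and GW4064 (squares); bars are the standard error of the limma fit and n = 3 per group. All 38 points lie above 0, and Fdft1 has the largest vehicle difference, 1.42.

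The promoters of Hmgcs1 and Msmo1 are shown since their genes passed within this group (none was matched for Fdft1), and that of Asns since it had the second largest difference among the genes that were higher. Each run is the 250 bases before the gene's start in RefSeq on GRCm38.p6, 5′ to 3′ along the gene: Hmgcs1 at chr13:119690101-119690350 on the plus strand, Msmo1 at chr8:64733579-64733828 on the minus strand and Asns at chr6:7693210-7693459 on the minus strand. Capitals mark matches, on either strand, to the SREBP element TCACNCCAC and the CCAAT box, where N is any base, and to the ATF4 element TGATGNAA.
Hmgcs1: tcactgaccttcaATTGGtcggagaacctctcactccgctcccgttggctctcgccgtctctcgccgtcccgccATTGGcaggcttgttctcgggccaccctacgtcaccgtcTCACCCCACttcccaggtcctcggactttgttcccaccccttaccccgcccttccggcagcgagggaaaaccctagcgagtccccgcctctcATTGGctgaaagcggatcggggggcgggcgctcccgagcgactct
Msmo1: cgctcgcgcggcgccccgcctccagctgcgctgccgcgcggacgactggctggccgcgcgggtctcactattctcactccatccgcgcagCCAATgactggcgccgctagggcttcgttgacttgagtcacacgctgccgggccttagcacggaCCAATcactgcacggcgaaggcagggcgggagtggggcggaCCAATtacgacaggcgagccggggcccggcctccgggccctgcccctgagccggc
Asns: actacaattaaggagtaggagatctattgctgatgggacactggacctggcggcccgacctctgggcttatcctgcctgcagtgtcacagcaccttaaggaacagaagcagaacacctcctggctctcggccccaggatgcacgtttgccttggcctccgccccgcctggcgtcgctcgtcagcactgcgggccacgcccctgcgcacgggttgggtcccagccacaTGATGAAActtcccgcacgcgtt
The Hmgcs1 window held 1 SREBP element and 3 CCAAT boxes, the Msmo1 window 3 CCAAT boxes, and the Asns window 1 ATF4 element close to the start. No matches of different motifs overlapped. Of the 32851 windows of this length in the table, 1.05% held TCACNCCAC, 33.8% CCAAT and 3.45% TGATGNAA. Promoters were found for 15 of the 19 measured cholesterol genes, in 18 windows, of which 15 (83.3%) held CCAAT and 1 (5.56%) TCACNCCAC; each of the 15 genes had at least 1 window with CCAAT. Promoters were found for 71 of the 84 genes that passed, in 98 windows, of which 34.7% held CCAAT, 2.04% TCACNCCAC and 3.06% TGATGNAA.

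Genes of fatty acid and triglyceride synthesis had smaller differences, and 0 of 23 passed in the limma fit. A difference above 0 was seen for 21 of 23 and an unadjusted p under 0.05 for 10, all above 0, with a median of 0.491. These shares were 48.2% and 6.16% over all genes. The fatty acid synthase Fasn differed by 1.20 (adjusted p = 0.182), the ATP citrate lyase Acly by 1.10 (0.115) and the glycerol-phosphate acyltransferase Gpam by 0.79 (0.0875). Srebf1, which encodes the regulator of these genes, differed by 0.01. The list's median difference from WT was -0.299, -0.0144 and -0.0352 in the liver knockout arrays and 0.150, 0.204 and 0.377 in the whole-body arrays, which did not overlap.

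Igfbp1 had the largest difference of all genes that passed. Its product binds insulin-like growth factors in blood, and its hepatic RNA rises with fasting, glucagon and cell stress and is repressed by insulin. It was at 9.87, 9.43 and 10.49 in the liver knockout and at 12.36, 12.44 and 12.44 in the whole-body knockout, a difference of 2.48 (SE 0.44, adjusted p = 0.0219) or 5.59-fold. WT arrays lay between, at 11.84, 10.75 and 11.68, and neither knockout passed against WT. With GW4064 the gene was at 12.14, 10.29 and 12.30 in the liver knockout and at 12.13, 11.81 and 12.42 in the whole-body knockout, and the groups overlapped (difference 0.54, adjusted p = 0.620). The difference between the vehicle and GW4064 values did not pass (-1.94, SE 0.62, adjusted p = 0.878).

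Asns, the asparagine synthetase that the amino acid response induces through ATF4, was at 6.48, 6.26 and 7.08 in the liver knockout and at 8.85, 8.85 and 8.76 in the whole-body knockout. The difference was 2.21 (SE 0.48, adjusted p = 0.0494), or 4.64-fold, and with GW4064 it was 2.56 (adjusted p = 0.0129). WT arrays were spread over 7.48, 7.13 and 8.69. Trib3, a pseudokinase that is itself an ATF4 target, was at 6.14, 6.44 and 6.41 in the liver knockout and at 7.05, 7.02 and 7.13 in the whole-body knockout (difference 0.74, SE 0.15, adjusted p = 0.0399). Here the WT arrays lay with the liver knockout, and the whole-body knockout was higher than WT by 0.72 (adjusted p = 0.0237), while with GW4064 the difference was 0.04. Asns and Trib3 were the 2 of 20 genes of the endoplasmic reticulum stress list that passed, and the list's median lay the other way, at -0.201, with 5 of 20 above 0.

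Pdk4, which shuts pyruvate out of mitochondrial oxidation in fasting, was at 4.72, 4.65 and 5.06 in the liver knockout and at 6.42, 5.92 and 5.50 in the whole-body knockout. It differed by 1.14 (SE 0.23, adjusted p = 0.0399) with vehicle and by 1.36 (0.00821) with GW4064, and was the 1 of 25 genes of fatty acid oxidation that passed. Igfbp1 was likewise the 1 of 16 genes of gluconeogenesis and glucose handling. The medians of these lists were 0.0272 and 0.15.

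Egr1, an immediate early transcription factor downstream of MAP kinase signalling, was at 6.15, 6.65 and 6.30 in the liver knockout and at 8.61, 7.93 and 8.32 in the whole-body knockout. The difference was 1.92 (SE 0.41, adjusted p = 0.0494), or 3.78-fold, and WT arrays lay at 9.23, 7.52 and 7.61, away from the liver knockout. Efna1, a membrane-bound ligand of Eph receptors, was at 6.17, 6.88 and 7.12 in the liver knockout and at 9.49, 8.72 and 7.99 in the whole-body knockout (2.01, SE 0.36, adjusted p = 0.0219). Its GW4064 arrays overlapped (difference -0.12), and the change of the difference did not pass (-2.13, adjusted p = 0.505). Pde4b, a phosphodiesterase of cyclic AMP, differed by 1.67 (adjusted p = 0.0130), Frmd4b by 1.39 (0.00673) and Smad6, an inhibitor of BMP signalling that was on the iron and metal list, by 0.96 (0.0219). Serpinb1a, an inhibitor of neutrophil proteases, differed by 2.02 (adjusted p = 0.0411), with whole-body arrays at 7.48, 5.36 and 7.16 and the second of them close to the liver knockout arrays at 4.64, 4.32 and 4.98.

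**Figure D3:**
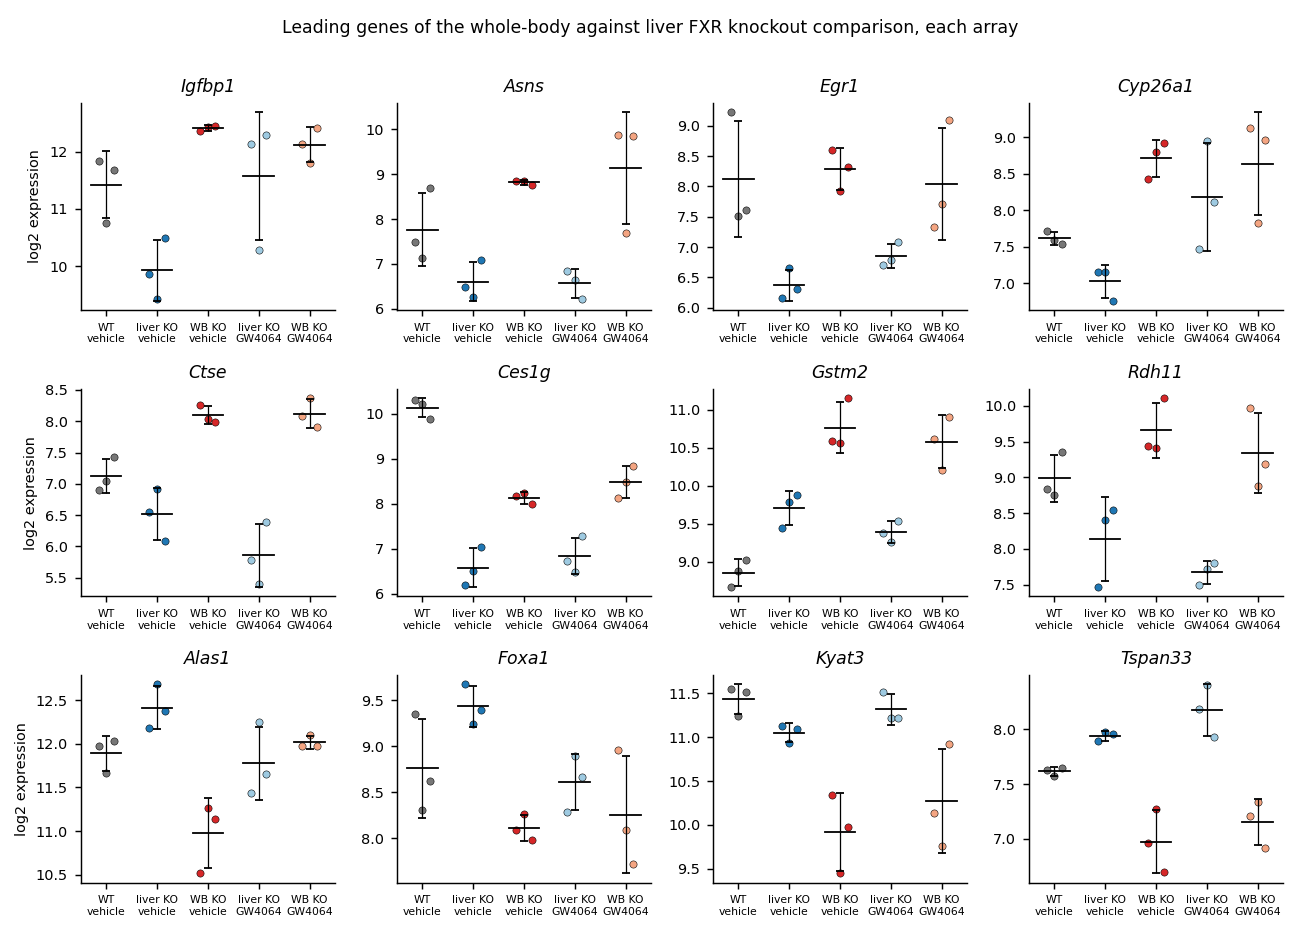
Log2 expression of 12 genes that passed in the vehicle comparison, in each array of WT vehicle, both knockouts with vehicle and both knockouts with GW4064; points are arrays, the line is the mean and the bars are the SD (n = 3). The vehicle arrays of the knockouts do not overlap in any panel, while with GW4064 those of Igfbp1 do.

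Genes of bile acid metabolism did not pass. Cyp7a1, the rate-limiting enzyme of bile acid synthesis that FGF15 and SHP repress, was at 10.38, 11.13 and 11.29 in the liver knockout and at 10.85, 11.10 and 11.73 in the whole-body knockout. The arrays overlapped, and the difference was 0.29 (SE 0.69, adjusted p = 0.926). Its other probe set differed by 0.91 (limma, unadjusted p = 0.210), and the mean of both by 0.60. With GW4064 the difference was 1.59 (adjusted p = 0.290) without overlap of the arrays, and 2.39 for the other probe set. Cyp8b1, the sterol 12-alpha-hydroxylase that sets the share of cholic acid, was at 11.94, 11.96 and 12.11 in the liver knockout and at 12.80, 12.41 and 12.63 in the whole-body knockout. Those arrays did not overlap, but the difference of 0.61 (SE 0.42) had an adjusted p of 0.630. With GW4064 the groups again did not overlap, at a difference of 1.14 (adjusted p = 0.192). Of the 19 measured genes of bile acid synthesis, 0 passed and 1 had an unadjusted p under 0.05, Akr1d1 (0.72, adjusted p = 0.0707), which reduces the steroid ring of bile acid precursors. The list's median was 0.0857. With GW4064, 1 of the 19 passed as higher, Akr1d1 (0.95, adjusted p = 0.0105), and 1 as lower.

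The transporter genes did not pass either. Abcb11, the bile salt export pump, was at 11.00, 10.96 and 11.02 in the liver knockout and at 11.14, 10.96 and 10.93 in the whole-body knockout, and its difference of 0.01 (SE 0.14, adjusted p = 0.987) changed sign between scalings. Of 15 transporter genes 0 passed (median 0.0571), with the largest difference for Slc22a7, an organic anion transporter (-1.34, adjusted p = 0.253). Nr0b2 (SHP), which represses Cyp7a1, was at 7.56, 8.01 and 8.18 in the liver knockout and at 8.77, 8.16 and 8.16 in the whole-body knockout (0.45, SE 0.34, adjusted p = 0.683). With GW4064 it differed by -1.21 (adjusted p = 0.0847) without overlap of the arrays. The change of the difference did not pass (-1.65, adjusted p = 0.815). Fgf15, made in the ileum, was between 3.95 and 4.44 in the 6 arrays, which gave a difference of -0.23 (adjusted p = 0.432). Without intestinal samples, the hormone's source was not measured.

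Of 24 genes of the FGF15 and SHP signalling list, Egr1 passed as higher and Hnf4a as lower. Of 13 FXR targets that the study names, 0 passed (median -0.117), and of 21 other FXR targets of mouse liver Ces1g alone passed (median 0.133). Relative to WT, the latter list had a median of -0.573 in the liver knockout and -0.178 in the whole-body knockout, while 6 of its 21 genes passed as lower in the liver knockout and 8 in the whole-body knockout. Over all 12394 genes, 61 passed as lower in the liver knockout and 67 in the whole-body knockout. These 2 comparisons with WT share the WT arrays. Csad, which makes hypotaurine for taurine conjugation of bile acids, was at 10.21, 10.45 and 10.88 in the liver knockout and at 11.29, 11.66 and 11.28 in the whole-body knockout. The arrays did not overlap, and the difference was 0.90 (SE 0.30, adjusted p = 0.211). With GW4064 it was at 8.45, 8.94 and 8.17 in the liver knockout and at 10.49, 11.52 and 11.40 in the whole-body knockout, where it passed (2.61, adjusted p = 0.00076), and the change of the difference did not (1.71, SE 0.43, adjusted p = 0.616). In its list of 14 genes of taurine and sulfur amino acids, 0 passed, 12 lay above 0 and 8 had an unadjusted p under 0.05, with a median of 0.284. Over all genes, 48.2% lay above 0 and 6.16% had such a p above it.

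Ces1g, a carboxylesterase that hydrolyses triglycerides and esters, differed from WT in both knockouts and more in the liver knockout. It was at 10.30, 10.21 and 9.89 in WT, at 6.18, 6.51 and 7.04 in the liver knockout and at 8.18, 8.24 and 7.99 in the whole-body knockout. The difference from WT was -3.56 (adjusted p = 3.88e-06) in the liver knockout and -1.998 (adjusted p = 0.00274) in the whole-body knockout, and they differed from each other by 1.56 (SE 0.30, adjusted p = 0.0326). With GW4064 the knockouts differed by 1.65 (adjusted p = 0.0105). It was the 1 of 8 carboxylesterases that passed. Gpld1, a phospholipase of GPI anchors chosen after its values were seen, had the same order, with whole-body arrays at 9.77, 9.82 and 9.76 against 9.41, 9.37 and 9.50 (0.36, adjusted p = 0.0411) and WT at 11.06, 11.02 and 10.90.

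Gstm2, a glutathione transferase, was above WT in both knockouts. It was at 8.67, 8.88 and 9.02 in WT, at 9.45, 9.78 and 9.87 in the liver knockout and at 10.58, 10.56 and 11.15 in the whole-body knockout. The difference of the knockouts was 1.06 (SE 0.17, adjusted p = 0.0130) with vehicle and 1.19 (0.00269) with GW4064. It was the 1 of 30 conjugation enzymes that passed, and 24 of them lay above 0 (median 0.21).

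Of 21 genes of retinol metabolism 2 passed, with a list median of 0.127. Cyp26a1, the enzyme that clears retinoic acid and that retinoic acid induces, was at 7.155, 7.155 and 6.759 in the liver knockout and at 8.43, 8.79 and 8.92 in the whole-body knockout (1.69, SE 0.34, adjusted p = 0.0399). Its WT arrays lay between at 7.72, 7.59 and 7.53, and with GW4064 the groups overlapped (0.46, adjusted p = 0.581). Rdh11, which reduces retinal, was at 7.47, 8.41 and 8.54 in the liver knockout and at 9.45, 9.42 and 10.11 in the whole-body knockout. Its difference was 1.52 (SE 0.33, adjusted p = 0.0494) with vehicle and 1.67 (0.0160) with GW4064.

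Among the genes that were lower in the whole-body knockout, Alas1 was the second largest by difference. It was at 12.19, 12.68 and 12.37 in the liver knockout and at 10.52, 11.26 and 11.14 in the whole-body knockout (-1.44, SE 0.21, adjusted p = 0.00673), and the whole-body knockout was also lower than WT (-0.91, adjusted p = 0.0385). With GW4064 its arrays overlapped, at 11.44, 12.24 and 11.65 in the liver knockout against 11.97, 12.10 and 11.98. The change of the difference was 1.68 (SE 0.29) with an adjusted p of 0.158, the smallest among the 84 genes.

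Foxa1 and Foxa3, pioneer factors that open hepatocyte chromatin, were both lower. Foxa1 was at 9.67, 9.24 and 9.39 in the liver knockout and at 8.08, 8.26 and 7.985 in the whole-body knockout (-1.32, SE 0.27, adjusted p = 0.0399). Foxa3 was at 9.49, 9.51 and 9.19 in the liver knockout and at 8.66, 8.77 and 8.28 in the whole-body knockout (-0.83, SE 0.17, adjusted p = 0.0467). In WT, Foxa1 was at 9.35, 8.30 and 8.62. Its WT mean lay between those of the knockouts, while WT replicate 1 lay within the liver knockout arrays. Neither knockout passed against WT for either gene. With GW4064 the difference was -0.36 (adjusted p = 0.596) for Foxa1 and -0.55 (0.127) for Foxa3. Hnf4a, a nuclear receptor at the centre of the hepatocyte programme, was at 12.27, 12.50 and 12.40 in the liver knockout and at 11.98, 11.89 and 11.91 in the whole-body knockout (-0.47, SE 0.10, adjusted p = 0.0481). It was the 1 of 10 hepatocyte markers that passed, 3 of its 4 probe sets had this direction, and the mean over its probe sets differed by -0.19.

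Kyat3, an aminotransferase that converts kynurenine, was at 11.13, 10.93 and 11.09 in the liver knockout and at 10.34, 9.45 and 9.97 in the whole-body knockout (-1.13, SE 0.23, adjusted p = 0.0400). The whole-body knockout was also lower than WT, with a difference of -1.52 (adjusted p = 0.00334), and the difference was -1.05 (0.0278) with GW4064. Tspan33, a tetraspanin, was at 7.89, 7.98 and 7.96 in the liver knockout and at 6.96, 7.27 and 6.69 in the whole-body knockout (-0.97, SE 0.15, adjusted p = 0.00711), and with GW4064 it differed by -1.02 (0.00203). Both genes kept the direction and passed in separate animals. Pik3r1, the regulatory subunit of PI 3-kinase, differed by -0.89 (adjusted p = 0.0494), and P4ha2, a subunit of the collagen prolyl hydroxylase, by -0.84 (0.0219). Tmeff2 differed by -1.34 (adjusted p = 0.0318), and the imprinted gene Peg3 (0.0378), Gdap10, Efr3a, Pde4dip (0.0121) and the coactivator Pprc1 (0.0494) by -0.68 to -0.63.

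Ctse, the aspartic protease cathepsin E, was at 6.55, 6.92 and 6.08 in the liver knockout and at 8.26, 8.03 and 7.99 in the whole-body knockout (1.57, SE 0.23, adjusted p = 0.00673), and with GW4064 it differed by 2.26 (0.000247). The WT mean lay between, with arrays at 6.90, 7.05 and 7.43. Its other probe set lay the opposite way, at -0.75 with vehicle (limma, unadjusted p = 0.247) and -1.14 with GW4064. The mean of both probe sets differed by 0.41 with vehicle. Over the 84 genes, 43 had several probe sets, of which 36 had all of them in 1 direction and 32 had at least 2 with an unadjusted p under 0.05. Aldh2 had probe sets that passed that threshold in the opposite direction, and its difference of 0.34 turned to -0.15 with the mean of its 3 probe sets.

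Markers of other liver cells were read beside these genes, since in whole liver more cells of a type and more RNA per cell cannot be told apart. Pdgfra, a growth factor receptor of stellate cells and fibroblasts that was chosen after its values were seen, as were the next 3 genes, was at 5.69, 5.79 and 5.80 in the liver knockout and at 6.60, 6.54 and 6.57 in the whole-body knockout (0.81, adjusted p = 0.0164). Its other, dimmer probe set differed by -0.03 (limma, unadjusted p = 0.75) and by -0.11 with GW4064. The mean of both probe sets differed by 0.39 with vehicle. Gdf10, a secreted factor of the TGF-beta family, was at 6.23, 5.95 and 6.18 in the liver knockout and at 7.13, 7.14 and 7.43 in the whole-body knockout (1.11, adjusted p = 0.0348). Abcc9, a subunit of potassium channels, differed by 1.09 (adjusted p = 0.00766) and Anxa1, an annexin, by 0.66 (0.0271). All 4 were also higher in the whole-body knockout than in WT and passed with GW4064. Of the 14 stellate cell and fibroblast markers, 0 passed with vehicle, 9 lay above 0, 7 had an unadjusted p under 0.05 above 0 and 1 below it, with a median of 0.277. The last 3 shares over all genes were 48.2%, 6.16% and 5.99%. Decorin (Dcn) came closest, at 0.80 (adjusted p = 0.0664). The deposited values carry no detection call, so no marker can be called absent. The list's median per array was 0.204, -0.0682 and -0.019 in the liver knockout and 0.425, 0.146 and 0.452 in the whole-body knockout. With GW4064, 4 of 14 markers passed (median 0.513), against 1.80% of all genes. The list's part in the differences of Pdgfra, Gdf10, Abcc9 and Anxa1 was not tested.

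All 17 endothelial markers had a difference above 0 with vehicle, against 48.2% of all genes. Of these markers, 3 had an unadjusted p under 0.05 (6.16% over all genes, above 0) and 0 passed after adjustment, with a median of 0.206. The list's median per array was -0.0168, 0.0176 and -0.0156 in the liver knockout and 0.285, 0.175 and 0.170 in the whole-body knockout, which did not overlap, while the median difference with GW4064 was 0.000362. The median difference of the 14 Kupffer cell markers was 0.0185, and 0 of them passed. None of the markers of cholangiocytes, T and NK cells, B cells, neutrophils, erythroid cells, pancreas and gut, or adipocytes passed, with list medians between -0.0647 and 0.114. Of 15 pericentral hepatocyte markers, 14 lay above 0 and 0 passed (median 0.29), against 4 of 10 periportal ones (median -0.0359).

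The acute-phase list lay on the other side. Of 25 genes 0 passed and 4 lay above 0, with a median of -0.262, and 5 had an unadjusted p under 0.05 below 0. Over all genes, 48.2% lay above 0 and 5.99% had such a p below it. The list's median per array was 0.120, 0.342 and 0.159 in the liver knockout and -0.0727, 0.0379 and -0.0406 in the whole-body knockout. Saa2, a serum amyloid, differed by -1.57 (adjusted p = 0.494) and Socs3, a brake on cytokine signalling, by -1.56 (0.304). All 12 male-biased liver genes had a difference below 0 (median -0.274) and 0 passed; per array their median was 0.247, 0.0333 and 0.243 in the liver knockout and 0.123, 0.130 and -0.417 in the whole-body knockout, so that replicate 3 alone lay below the others. Without it the median was -0.0114. Of 18 circadian clock genes, 0 passed with vehicle (median -0.0358), 3 had an unadjusted p under 0.05 above 0 and 1 below it. Over all genes these shares were 6.16% and 5.99%. With GW4064, 2 passed as higher and 5 as lower, against 1.80% of all genes in either direction. The clock list ran from Usp2 (-0.68) to Arntl (0.86) with vehicle, which differed by -1.57 and 1.995 with GW4064. Whether the hour of collection differed between the groups was not tested.

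**Figure D4:**
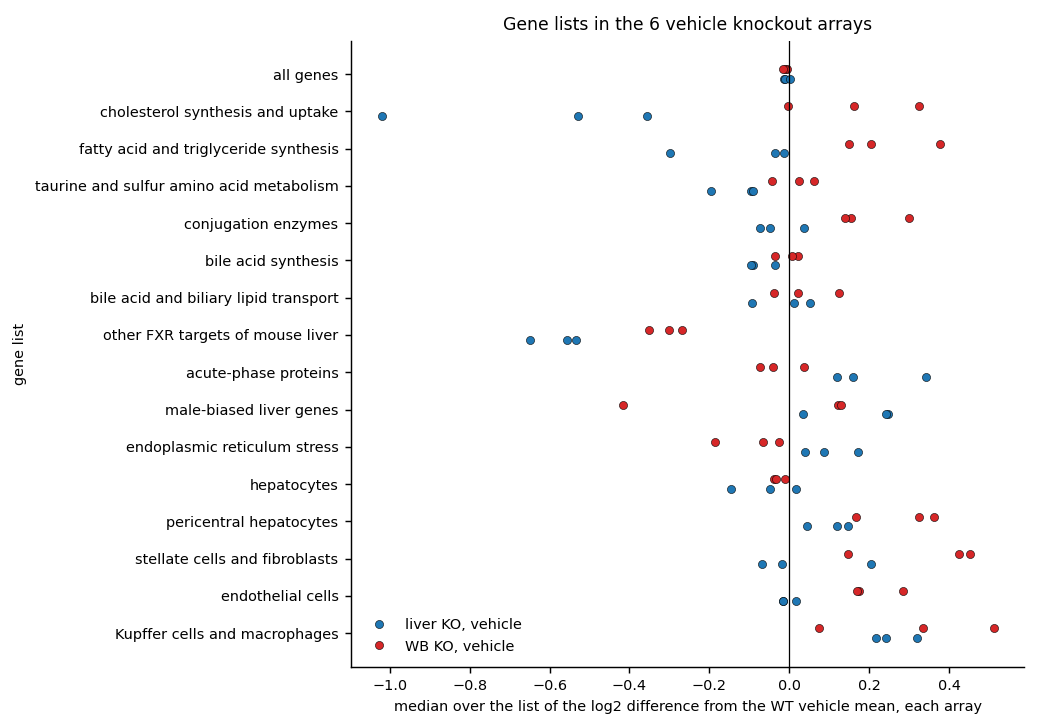
Median log2 difference from the WT vehicle mean for 16 gene lists, in each of the 3 liver knockout and 3 whole-body knockout arrays with vehicle; points are arrays. The cholesterol list separates the groups most widely, from -1.02 to -0.355 in the liver knockout and from -0.00311 to 0.325 in the whole-body knockout.

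Fmn2, Ifi202b and Ank3 differed in the liver knockout from both WT and the whole-body knockout. Fmn2, a formin that nucleates actin, had the smallest adjusted p of all genes. It was at 5.10, 4.74 and 4.93 in WT, at 6.33, 5.75 and 6.24 in the liver knockout and at 4.84, 4.39 and 4.30 in the whole-body knockout. The difference of the knockouts was -1.59 (SE 0.16, adjusted p = 0.000311), and the liver knockout was above WT by 1.18 (adjusted p = 0.00153). Ifi202b, an interferon-inducible gene of the Ifi200 family, was at 3.62, 3.88 and 3.89 in WT, at 4.64, 4.79 and 4.45 in the liver knockout and at 3.83, 3.915 and 3.82 in the whole-body knockout (-0.77, SE 0.12, adjusted p = 0.00711). Mndal, a related gene chosen after its values were seen, had the opposite direction, at 6.87, 6.97 and 6.70 in the liver knockout and at 7.95, 7.94 and 7.95 in the whole-body knockout (1.10, SE 0.22, adjusted p = 0.0371), and its liver knockout value did not pass against WT (-0.83, adjusted p = 0.0878). Related genes of this family can share probe targets, so the values of Ifi202b and Mndal are uncertain. In the RefSeq order of genes, Mndal, Ifi202b, Mptx1 and Fmn2 are 4 consecutive measured genes of chromosome 1, of which 3 passed. In the wider stretch from Dusp12 to Fmn2, 4 of 59 measured genes passed. Both stretches were drawn between genes that had passed, so these counts only describe where the genes lie. Of the 708 genes measured on that chromosome 11 passed (1.55%), the highest count of any chromosome.

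Ank3, which anchors membrane proteins to the cytoskeleton, was at 6.85, 6.52 and 6.97 in WT, at 4.61, 4.57 and 5.31 in the liver knockout and at 6.68, 6.61 and 7.28 in the whole-body knockout. The knockouts differed by 2.03 (SE 0.23, adjusted p = 0.00080) with vehicle and by 1.88 (0.00076) with GW4064, and the whole-body knockout differed from WT by 0.08 (0.923). Ank3 lies on chromosome 10, as Nr1h4 does, with 189 measured genes between them. Of the 40 measured genes nearest to Nr1h4, 20 on each side, 1 passed, the orphan nuclear receptor Nr2c1, at 6.56, 6.74 and 6.75 in the liver knockout and 7.17, 7.10 and 7.29 in the whole-body knockout (0.50, adjusted p = 0.0399). It was lower in the liver knockout than in WT (-0.88, adjusted p = 0.000323). Against WT, 5 of the 40 genes passed in the liver knockout and 3 in the whole-body knockout. Over all genes these shares were 0.879% and 1.14%. The 3 genes were Hal, Amdhd1 and Ikbip, which also passed in the liver knockout in the same direction. How far flanking DNA of the targeted alleles enters these values was not tested.

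Nnt, the mitochondrial transhydrogenase that C57BL/6J mice carry in a defective form, was at 8.34, 8.76 and 8.53 in WT and at 9.99, 9.73 and 9.84 in the whole-body knockout, which was higher than WT (1.31, adjusted p = 0.0206). In the liver knockout it was at 9.84, 10.04 and 8.45, so that 2 arrays lay with the whole-body knockout and replicate 3 with WT. All 6 knockout arrays with GW4064 lay between 9.82 and 10.15. The difference of the knockouts with vehicle was 0.41 (adjusted p = 0.598), and -0.09 without that replicate.

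**Figure D5:**
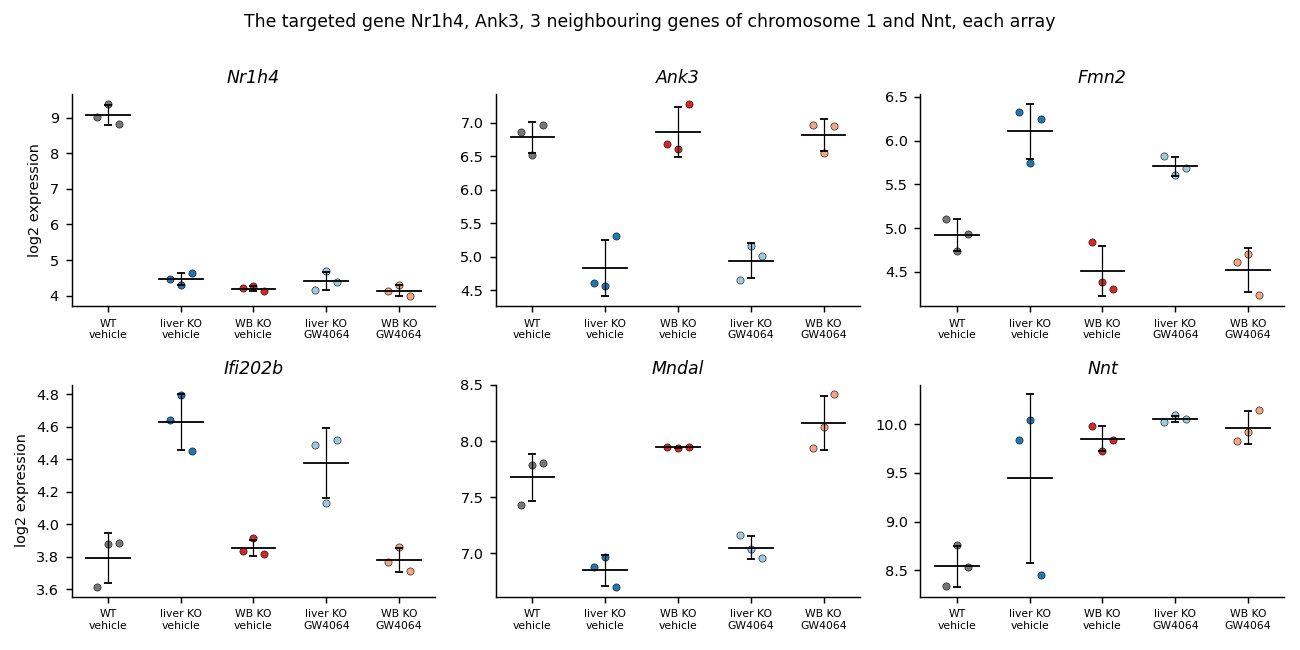
Log2 expression of the targeted gene Nr1h4, of Ank3, of Fmn2, Ifi202b and Mndal, which lie close together on chromosome 1, and of Nnt; points are arrays, the line is the mean and the bars are the SD (n = 3). Fmn2 and Ank3 set the liver knockout apart from WT and from the whole-body knockout, and Nnt of liver knockout replicate 3, at 8.45, lies with WT.

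Each knockout was also set against WT with vehicle, in 2 comparisons that share the WT arrays with each other and the knockout arrays with the comparison above. The liver knockout differed from WT in 109 genes (0.879%) and the whole-body knockout in 141 (1.14%). Of the 84 genes, 10 passed in the liver knockout against WT only, among them Ank3, Fmn2, Ifi202b, Nr2c1 and, chosen after its values were seen, Clk1, a kinase of splicing factors (-0.56, adjusted p = 0.00266). A further 20 passed in the whole-body knockout against WT only, among them Alas1, Ctse, Kyat3, Trib3, Tspan33, Gdf10 and Pdgfra. Ces1g, Gpld1 and Gstm2 passed in both and 51 in neither. The WT mean lay between the knockout means for 66 of the 84 genes, above both for 8 and below both for 10. For 51 genes, then, the knockouts differed from each other while neither passed against WT, as for Igfbp1, Asns, Egr1, Hmgcs1 and Foxa1.

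The same genotypes given GW4064 are separate animals, and the hepatocytes of both lack FXR, the receptor of the agonist. There, 223 genes passed (1.80%), 134 higher and 89 lower in the whole-body knockout. Of the 84 genes, 77 had the same sign, against 63.8% of all genes, and 34 passed in the same direction, 23 higher and 11 lower, while 0 passed in the opposite one (limma). Mnt, a repressor of the MYC network chosen after its values were seen, had the opposite sign with GW4064 (0.53 with vehicle, -0.26 with GW4064) without passing there. The median difference with GW4064 was 0.551 over the 52 higher genes and -0.357 over the 32 lower ones. Without whole-body GW4064 replicate 3, which stood apart, 106 genes passed in all, and of the 84 there were 22 that passed and 78 with the same sign.

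A test of whether the genotype difference itself changed with GW4064 found 0 of 12394 genes after adjustment (0%), with a smallest adjusted p of 0.101. At an unadjusted p under 0.05 there were 604 of the 12394 genes, 24 of them among the 84, led by Alas1, Mnt and Tgif1. The vehicle difference by which the 84 were chosen is part of this contrast. The selection thus raises their count, and no conclusion is drawn from it. Genes that passed with one treatment and not with the other, such as Igfbp1, Trib3 and Csad, are therefore not shown to differ between treatments.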

How the data were processed

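The log2 expression values, 1 per probe set, were made by the authors with RMA (version not stated) from all 18 arrays and entered the fits unchanged. The probe sets are those of a 3′ array and not of the gene array that the methods name. The platform annotation named a single gene for 20393 of the 22690 probe sets, more than 1 gene for 691 and no gene for 1606, and 20364 matched RefSeq by gene identifier. A gene was represented by its probe set with the highest mean, which gave 12394 genes, 4958 of them with several probe sets. Group means were fitted to all 18 arrays (12 residual degrees of freedom) with limma 3.58.1 in R 4.3.3 (lmFit, eBayes), with two-sided p-values and Benjamini-Hochberg adjustment over every gene. The number of arrays limits the precision. Scripts were tested on simulated data.

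Named genes are the 15 largest differences past the threshold in each direction, 8 chosen genes (Nr1h4, Nnt, Fgf15, Cyp7a1, Cyp8b1, Nr0b2, Abcb11, Csad), up to 4 members of each of 43 lists that passed (otherwise up to 2 with the largest difference) and the 20 measured neighbours of Nr1h4 on each side. Every other gene named, whether marked in the text or not (further members of a list, the hepatocyte products, Tgif1, Aldh2 and genes at the threshold), was chosen after its values were seen. The members and lists were chosen with earlier results of these data known. Alternatives were fits on fewer or weighted arrays, another prior, scaling, probe set rule or dim-gene filter (the 40% dimmest), a replicate block, both treatments together, the methods' t-test and each array left out. The fit without the 2 arrays that stood apart was added after seeing the data.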

Additional observations from a re-analysis of the deposited data

How the results depend on the processing

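The number of genes that passed between the knockouts with vehicle, 84, depended on the arrays and the prior in the fit. It was 184 with only the compared arrays (66 of the 84 among them), 148 with the 9 vehicle arrays (67), 53 with a trended and robust prior (52), 260 with array weights (84) and 134 without the 2 arrays that stood apart (83). Pooling vehicle and GW4064 arrays, which is another contrast (6 against 6 arrays), gave 711 (79). Other scalings, probe set rules and the dim-gene filter gave 59 to 109. Under the trended prior 16 of 36 named genes that had passed no longer did, among them Igfbp1, Asns, Egr1, Ces1g, Hmgcs1, Fdft1, Msmo1 and Foxa1. With 1 array left out, the counts were 3 to 23 with vehicle, 83 to 385 with GW4064 (223 with all arrays), 0 to 1 for the change of the difference, 37 to 89 for the liver knockout against WT (109) and 56 to 101 for the whole-body knockout (141). With GW4064, 16 genes passed with only the compared arrays. The change of the difference was called for 1 gene with array weights and 1 with quantile normalization. Against WT, the liver knockout had 217 genes with array weights and 218 without the 2 arrays that stood apart, and the whole-body knockout 266 without them. At an unadjusted p under 0.05 and 1.5 fold, limma gave 186 genes with vehicle (127 higher, 59 lower) and 318 with GW4064, and the methods' t-test 166 and 178. After Benjamini-Hochberg the methods' t-test gave 0 for both. The cause was not tested.

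The replicate numbers did not pair the samples (same-numbered vehicle arrays correlated at 0.0733, -0.207 and 0.000626), and a replicate block gave 91 genes, 66 of them among the 84, with vehicle and 283 with GW4064. The list median of cholesterol genes was 0.702 to 1.02 with 1 array left out. With the mean of its probe sets, Aldh2 (-0.15) was the 1 gene of the 84 to change sign. Signs also changed for Abcb11 (-0.0042 with arrays centred on their median, -0.017 with quantile normalization, -0.10 with both treatments together, -0.05 to 0.0519 with 1 array left out), for Nr0b2 (-0.38), Lpl (0.58) and Ccnd1 (0.18) with both treatments together, and with 1 array left out for Nnt (-0.0881 to 0.71), Hbb-b2 (-0.23 to 0.031) and Cyp2b9 (-0.33 to 1.56).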
